A study of Equus caballus with 3 samples.

Results

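Among cultured mesenchymal stromal cells (MSCs) grown from horse peripheral blood (PB), 151 cells carried transcripts of *ACTG2*, the gene for the gamma actin of enteric smooth muscle, at 3 or more unique molecular identifiers (UMIs, each marking 1 captured transcript). They were 151 of the 5318 PB-derived MSCs kept after filtering (2.84%, exact Clopper-Pearson 95% interval 2.41 to 3.32%), and of 16301 kept cells in the series. The cells were selected on 2 measured values, 3 or more *ACTG2* UMIs and fewer than 15 UMIs of the chemokine gene *CCL2* per 10,000, and both genes were therefore left out of the findings. They were compared with the 4282 PB-derived MSCs below the same *CCL2* limit that had no *ACTG2* UMI, called *ACTG2*-zero cells here. The 423 cells with 1 or 2 *ACTG2* UMIs entered neither group, nor did the 462 kept cells above the *CCL2* limit, of which 52 had 3 or more *ACTG2* UMIs.

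The cells came from a healthy warmblood mare aged 10 years, whose adipose tissue (AT), bone marrow (BM) and PB each gave a culture that was passaged and then captured, untreated, on a droplet platform that counts transcript 3′ ends. Each source had 1 library, and only the same animal was sampled, so no test across cells was run and no p-value is given. Exact 95% Poisson intervals of UMI sums and Clopper-Pearson intervals of shares cover counting error only, not the variation between cells or cultures. The titles of the samples name the tissue, although the source name deposited with all 3 reads blood mononuclear cells.

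Smooth muscle cells and myofibroblasts generate force with bundles of actin that are decorated by calponin, transgelin, tropomyosins and myosin light chains. *ACTG2* belongs to the same set of contractile genes as *ACTA2*, the alpha actin of vascular smooth muscle, and cultured MSCs commonly express part of this set on stiff plastic. Many of these genes, together with genes of secreted proteins such as *CTGF* and *THBS1*, respond to serum, to tension and to TGF-beta. In the EquCab3.0 annotation of the files, *ACTG2* lay on the minus strand of chromosome 15, *ACTA2* on the plus strand of chromosome 1 and *THBS1* on the minus strand of chromosome 1. Exon coordinates were not analysed here.

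*ACTG2* counts were low in most of the 151 cells, with a lowest value of 3, a median of 4 and a highest value of 39 UMIs. Per 10,000 UMIs of a cell, *ACTG2* ranged from 2.00 to 31.6 with a median of 4.76. The threshold cut through a continuous falling distribution, with 106 cells just outside at 2 UMIs and 49 cells just inside at 3, at medians of 2.16 and 3.05 UMIs per 10,000. Counts of 3 to 5 were found in 92 cells, counts of 6 to 10 in 35 and counts over 10 in 24. The 151 cells held 1029 of the 2181 *ACTG2* UMIs of all kept PB-derived MSCs (47.2%). Their *CCL2* reached 14.8 UMIs per 10,000 just inside the limit, and 43 of them had none.

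*ACTG2*-positive cells were deeper than *ACTG2*-zero cells, with a median of 10519 UMIs (range 2637 to 14972) on 2754 genes against 7548.5 UMIs (range 2503 to 14942) on 2139 genes. A count threshold favours deep cells, so shares of cells with a UMI are also given after every cell was thinned to 2500 UMIs. Mitochondrial UMIs made up a median of 1.66% and 1.54%. In total 1573864 UMIs stood behind the *ACTG2*-positive group and 32495314 behind the *ACTG2*-zero group, so that 3 UMIs corresponded to 1.91 and 0.0923 CPM, respectively (UMIs per 1000000 UMIs of the group). The 288 PB barcodes with fewer than 1000 UMIs held 36 *ACTG2* UMIs in 12 barcodes, or 300.8 CPM against 52.4 CPM in the kept cells, and the part of free or broken-cell RNA in the result was not tested. All 5318 kept PB barcodes, the 151 included, also occurred in the AT matrix, with a median of 10.7% as many UMIs there, but 0 of the 151 were kept cells of AT and 0 occurred in BM. This percentage was alike in *ACTG2*-positive (10.8%) and *ACTG2*-zero cells (10.7%). *ACTG2* was at 422 CPM in the kept cells of AT against 52.4 CPM in those of PB, and the part of UMIs carried over between these libraries in the *ACTG2* counts was not tested. Leaving out the PB barcodes that were kept cells of another library, an alternative chosen after seeing the data, left 151 *ACTG2*-positive cells.

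Markers of MSCs and of other cell types were looked up in the group. *B2M* had UMIs in 99.3% of *ACTG2*-positive cells, *CD44* in 95.4%, *ITGB1* in 92.1%, *THY1* in 58.3% and *ENG* in 52.3%. In *ACTG2*-zero cells *B2M* had UMIs in 98.9%, *CD44* in 94.5% and *ENG* in 39.8%. Of the 11 genes of the MSC surface list 3 had 0 UMIs in *ACTG2*-positive cells, *VCAM1*, *NGFR* and *LEPR*. Of 11 haematopoietic marker genes 8 were at 0 UMIs in the group, among them *PTPRC*, *CD14*, *LYZ*, *CSF1R* and *SPI1*, and their summed level was 10.8 CPM against 6.68 CPM in *ACTG2*-zero cells, of which *CD68* gave 8.90 and 4.71 CPM. Summed per cell, haematopoietic markers ranged from 0 to 1.97 UMIs per 10,000 in *ACTG2*-positive and from 0 to 4.99 in *ACTG2*-zero cells, with medians of 0. Of 9 endothelial marker genes 8 were at 0, including *PECAM1*, *VWF*, *CDH5* and *KDR*, with a sum of 3.81 CPM against 2.77 CPM. Pericyte markers were no higher, at a sum of 85.8 CPM against 108.9 CPM, with *MCAM* and *NOTCH3* at 0 and *RGS5* at 1 UMI. Some genes of mature smooth muscle on the contractile list were at or near 0 UMIs in both groups, so they do not tell the groups apart. *DES*, *PLN* and *LDB3* had 0 UMIs in *ACTG2*-positive cells, with *DES* at 0.246 CPM in *ACTG2*-zero cells. *MYH11*, the myosin heavy chain of smooth muscle, was at 1.27 against 0.985 CPM, *MYOCD*, its master coactivator, at 1.27 against 0.369 CPM and *MYLK* at 1.91 against 1.20 CPM, each on 2 or 3 UMIs in *ACTG2*-positive cells. Other genes of the same list were well detected and are given further on. The group is described here as *ACTG2*-positive MSCs.

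*ACTG2*-positive cells differed from *ACTG2*-zero cells in many genes, more often upward. Of 3773 genes detected in 25% or more of *ACTG2*-positive or of *ACTG2*-zero cells, 638 were at least 1.5-fold higher (16.9%) and 177 at least 1.5-fold lower (4.69%) in CPM of the summed UMIs. At 2-fold, 209 genes were higher (5.54%) and 32 lower (0.848%). The median log2 ratio over all 3773 genes was 0.17. With TMM scaling, which moved all ratios by -0.19 on the log2 scale, the split was 366 higher and 372 lower, so the excess of higher genes depended on the scaling. Of the 3773 genes, 1028 passed the 25% filter only in *ACTG2*-positive cells, and these gave 345 of the higher and 0 of the lower genes. Among the 2745 genes that passed in *ACTG2*-zero cells, 293 were higher and 177 lower. Besides the genes of which this is said below, *CCL26*, *IL11*, *PRSS23*, *CGA*, *FABP5*, *ALCAM*, *ANLN*, *BDNF*, *SHCBP1*, *MIS18A* and *HSPA5* passed only in *ACTG2*-positive cells. The counts of list genes below stand against the shares of 16.9% higher and 4.69% lower over all genes. Those among cells called G1 stand against 8.59% higher and 4.06% lower of the same 3773 genes in these cells.

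The smooth muscle contractile genes were higher as a group. Of 13 measured genes of this list, 9 were at least 1.5-fold higher and 0 lower, with a median log2 ratio of 0.81 against 0.17 over all genes. Of the 13, 10 also passed the 25% filter in *ACTG2*-zero cells, with a median of 0.75, and *CNN1*, *LMOD1* and *SMTN* did not. *ACTA2* had a median of 11.0 UMIs per 10,000 in *ACTG2*-positive cells (range 0 to 72.9) and of 3.39 in *ACTG2*-zero cells (range 0 to 54.5). The ranges overlapped, but the middle of the distribution was shifted, and at 2500 UMIs per cell *ACTA2* was found in 84.8% against 56.7% of cells. Summed, *ACTA2* was at 1212 CPM (95% interval 1158 to 1267) against 540 CPM (532 to 548), a 2.24-fold difference.

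*CNN1*, which encodes the actin-binding protein calponin, showed the largest ratio of the list at 98.5 CPM against 24.7 CPM, 3.87-fold. It was found in 53.0% against 14.7% of cells, and in 19.2% against 5.89% after thinning. *TAGLN*, encoding transgelin, was present in every *ACTG2*-positive cell at a median of 25.4 UMIs per 10,000 (range 3.68 to 85.1) against 12.5 (range 0 to 71.3), or 2681 against 1506 CPM. *MYL9*, a regulatory myosin light chain, stood at 602 against 327 CPM, *TPM2* at 1114 against 676 CPM, *LMOD1*, which nucleates actin in muscle, at 76.9 against 35.5 CPM and *SMTN* at 45.7 against 21.0 CPM. Nonmuscle myosin *MYH9* (log2 ratio 0.81) and the LIM protein gene *CSRP1* (0.79) were past the same fold, whereas *MYL6* (0.55), *TPM1* (0.39), *MYH10* (0.11) and *CALD1* (-0.09) were not.

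**Figure D1:**
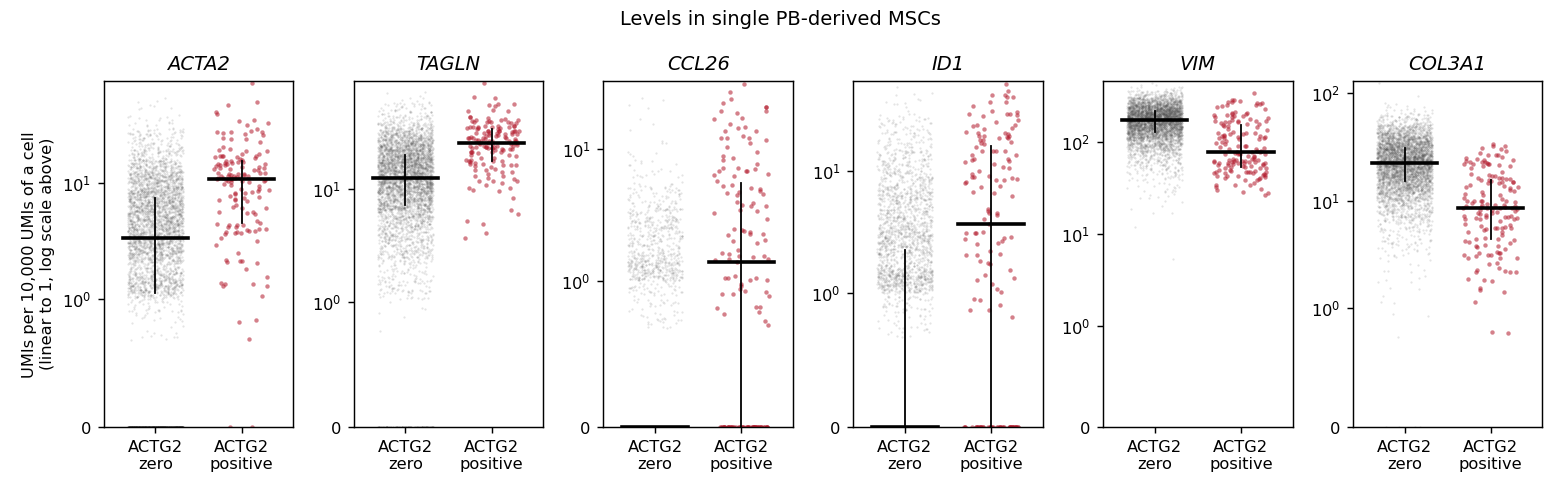
Levels of 6 genes in single PB-derived MSCs, in UMIs per 10,000 UMIs of a cell on an axis that is linear to 1 and logarithmic above, for 4282 ACTG2-zero cells (grey) and 151 ACTG2-positive cells (red). Each point is a cell, thick bars are medians and thin lines span the middle 50% of cells. ACTA2, TAGLN and CCL26 medians were higher and VIM and COL3A1 medians lower in ACTG2-positive cells, with overlapping ranges throughout.

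Of 14 measured genes of the actin isoform and actin cytoskeleton list, 7 were higher and 1 lower (median log2 ratio 0.36). *ACTA2* is among the 7 and also belongs to the contractile list. Of the cytoplasmic actins, *ACTB* was at 2420 against 1459 CPM, whereas *ACTG1* was at 4171 against 4276 CPM. Paralogous actin genes, *ACTG2* and *ACTA2* included, can share reads, so their separation rests on the counting of the authors. The part of shared reads in the *ACTA2* difference was not tested. *ANLN*, a scaffold of the cleavage furrow, had a log2 ratio of 3.12, *ACTN1* of 1.17, *ACTN4* of 0.67, *CFL1* of 0.65 and *PFN1* of 0.63. *VIM*, encoding vimentin, the intermediate filament typical of mesenchymal cells, was the gene on the lower side, at 10401 against 17454 CPM.

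Targets of the serum response factor and its coactivators of the MRTF family lay close to the other genes, with 4 of 13 higher and 1 lower and a median of 0.21 against 0.17 over all genes. *NEXN* (log2 ratio 1.20), *FHL2* (1.05), *VCL* (0.88) and *ITGA5* (0.85) were higher and *FHL1* (-0.59) was lower. Of these *NEXN* and *ITGA5* passed the 25% filter only in *ACTG2*-positive cells. The focal adhesion list also had a median near that of all genes, at 0.23. In it 4 of 14 were higher, the caveolar gene *CAV1* (1.18), *VCL*, *ITGA5* and the integrin gene *ITGB1* (0.75), and *ITGB5* (-0.86) was lower.

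*THBS1*, encoding the matricellular protein thrombospondin, is the gene proposed as a marker beside *ACTG2*. It was found in 75 of the 151 cells (49.7%, 95% interval 41.4 to 57.9%) against 26.3% of *ACTG2*-zero cells, and in 26.5% against 12.6% at 2500 UMIs per cell. The level was 165 CPM (95% interval 145 to 186) against 71.0 CPM (68.1 to 73.9), 2.30-fold. At this level a cell of median depth holds few *THBS1* UMIs, so a count of 0 does not show that a cell lacked the transcript. Of 6 measured thrombospondins and partners 3 were higher and 1 lower. *THBS2* was at 170 against 98.3 CPM, and *LRP1*, a receptor of thrombospondins, was lower at 117 against 185 CPM.

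*CCL26*, an eotaxin chemokine, was at 422 against 43.6 CPM, and was found in 64.2% against 17.6% of cells and in 45.0% against 7.66% after thinning. Its median was 1.38 UMIs per 10,000 (range 0 to 31.2) against 0 (range 0 to 24.5), so most *ACTG2*-zero cells had no *CCL26* UMI.

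*IL11*, a cytokine of the interleukin-6 family that fibroblasts release on TGF-beta stimulation, was at 92.1 against 9.08 CPM, with UMIs in 35.8% against 5.21% of cells, and in 13.2% against 2.06% after thinning. *F3*, encoding tissue factor, the membrane protein that starts clotting, was at 135 against 23.6 CPM, although a single cell gave 15.6% of its UMIs. *PRSS23*, a secreted serine protease gene, was at 248 against 38.9 CPM, *CGA*, the shared alpha subunit of glycoprotein hormones, at 196 against 31.0 CPM and *FABP5*, a fatty acid carrier gene, at 108 against 10.8 CPM. The lowest level of each was 0 UMIs in both groups, which at these levels can come from shallow sampling of a cell.

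The list of TGF-beta responsive genes moved in both directions. Of 13 measured genes 4 were higher, among them *LTBP1* (log2 ratio 1.13), *PLAU* (1.01) and *PLAUR* (0.74), and 3 lower, the ligand gene *TGFB3* (-1.45), *COL3A1* (-1.15) and *BGN* (-0.74), with a median of -0.01. Among cells called G1, 5 were higher and 1 lower (median -0.10). *FN1*, encoding fibronectin, had a ratio of -0.47. Among CCN and YAP targets 3 of 6 were higher, *F3* (2.47), *CTGF* (1.61) and *CYR61* (0.75). Of these *F3* and *CTGF* passed the 25% filter only in *ACTG2*-positive cells.

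The BMP and ID list had 3 measured genes, *ID1*, *ID3* and *ID2*, and each was past 1.5-fold. Of these *ID2* passed the 25% filter only in *ACTG2*-positive cells. *ID1*, an inhibitor of helix-loop-helix factors that BMP signalling induces, was at 989 CPM (95% interval 940 to 1039) against 221 CPM (216 to 226), with medians of 3.68 and 0 UMIs per 10,000 and UMIs in 70.2% against 41.1% of cells, or 51.7% against 25.3% after thinning. *ID3* was at 747 against 250.1 CPM and *ID2* at 119 against 44.7 CPM. The genes of BMP ligands and receptors on this list were not measured in 25% of either group.

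The matrix genes had a median below that of all genes. Of 15 measured collagens and other matrix genes 5 were lower and 1, the proteoglycan gene *VCAN* (log2 ratio 0.76, past the 25% filter only in *ACTG2*-positive cells), higher, with a median of -0.52. *COL3A1* had a median of 8.56 UMIs per 10,000 (range 0.79 to 33.8) against 22.5 (range 0 to 123), or 1055 against 2341 CPM. *COL1A2* was at 4760 against 7360 CPM, *COL6A2* at 188 against 330.4 CPM, *BGN* at 440.3 against 734 CPM and *DCN*, encoding decorin, at 735 against 1200.1 CPM. *COL1A1* (-0.54) and *LUM* (-0.42) were lower by less than 1.5-fold, and *LUM* was at 0.36 among cells called G1 (counting interval 0.30 to 0.41). Among cells called to be in G1 phase, 0 of the 15 matrix genes were lower and 2 higher, with a median of -0.07. The 5 lower genes were each past 1.5-fold among cells called S and among cells called G2M, as *COL3A1* at -1.25 and -1.41. Of 15 genes of collagen processing and proteases 0 passed the fold in either direction (median 0.03).

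The genes with the smallest ratios were led by *MGP*, encoding matrix Gla protein, an inhibitor of calcification, at 28.6 against 129 CPM with UMIs in 14.6% against 34.0% of cells, or 5.30% against 18.9% after thinning. *COLEC12*, a scavenger receptor gene, followed at 16.5 against 54.9 CPM and the stress-response gene *NUPR1* at 199.5 against 588 CPM, with medians of 1.02 and 5.45 UMIs per 10,000. Below these lay *MXRA8* (log2 ratio -1.48), *FOS* (-1.46), *LBH* (-1.40), *PPP1R14A* (-1.37), *YPEL3* (-1.29), *TMEM119* (-1.27), *HNMT* (-1.23), the matrix gene *DPT* (-1.17) and 3 genes known only by Ensembl identifiers (-1.51 to -1.24). *PPP1R14A* encodes an inhibitor of myosin phosphatase that smooth muscle expresses. Among cells called G1, *COLEC12* (-2.02), *MGP* (-1.09), *LBH* (-1.07), *YPEL3* (-0.70) and the ligand gene *TGFB3* (-0.65) were still past 1.5-fold, but *COLEC12* rests on 6 UMIs there and the counting intervals of the other 4 reached inside 1.5-fold, as for *YPEL3* (-1.41 to -0.09). The other genes with the smallest ratios were not, from *NUPR1* (-0.56), *FOS* (-0.53), *DPT* (-0.46), *HNMT* (-0.45) and *MXRA8* (-0.16) to *PPP1R14A* (0.019) and *TMEM119* (0.022).

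The list of stress genes had a median below that of all genes over all cells. Of 13 measured genes of the integrated stress and unfolded protein responses 5 were lower and 0 higher (median -0.54), among them the transcription factor genes *ATF5* (-0.98) and *ATF4* (-0.65), whereas the chaperone gene *HSPA5* had a ratio of 0.29. Among cells called G1, 2 of the 13 were higher and 1 lower, with a median of -0.06. Of 7 immediate early genes *FOS*, *KLF4* (-0.99) and *JUNB* (-0.65) were lower and *JUN* (0.83) higher, whereas among cells called G1 0 of the 7 passed the fold in either direction (median -0.23). Glycolytic and hypoxia genes passed the fold in 0 of 13 cases in either direction, and interferon and chemokine lists in 0 of 2 measured genes each. Of the chemokine genes below the 25% filter, picked after their values were seen, *CXCL6* was at 39.4 CPM with a log2 ratio of 2.53. *CXCL1* was at 17.8 against 5.79 CPM and *CXCL8* at 15.9 against 0.554 CPM. In this order, they had UMIs in only 14.6%, 8.61% and 4.64% of *ACTG2*-positive cells. *CXCL10* went the other way, at 1.91 against 7.39 CPM, on 3 UMIs in *ACTG2*-positive cells. *CCL20* had a log2 ratio of -0.03. The 64 measured ribosomal protein genes had a median of -0.23, with 0 past the fold.

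Of 15 measured genes that earlier analysis of these data had tied to other subsets of PB-derived MSCs, 8 were lower and 1 higher (median -0.67). Apart from the *CCL2* limit, cells of those subsets were not left out of the *ACTG2*-zero cells. The genes thus come from the cells compared, and their counts are given as a description only. The lower genes included *MGP*, *S100A1* (-1.16), *TCF7* (-1.03), *SERPINF1* (-0.98), *CA2* (-0.93) and *PLTP* (-0.89), and the higher gene was *NSG1* (1.61), which passed the 25% filter only in *ACTG2*-positive cells. Among cells called G1, 2 of the 15 were lower and 2 higher, with a median of 0.22. Of 8 genes tied in the same way to PB as a source, 3 were lower and 0 higher (median -0.57), and among cells called G1 1 was lower and 1 higher (median 0.21). Of the MSC surface list, *ALCAM*, encoding an adhesion molecule, was at 80.7 against 13.5 CPM and *ITGB1* at 316 against 188 CPM, *B2M* had a log2 ratio of -0.54, and 0 of 6 were lower by 1.5-fold. Osteoblast genes had 1 of 4 lower, *ALPL* (-0.63), and adipocyte genes 1 of 2, *PLTP*, while 0 of the chondrocyte and tendon genes were measured.

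**Figure D2:**
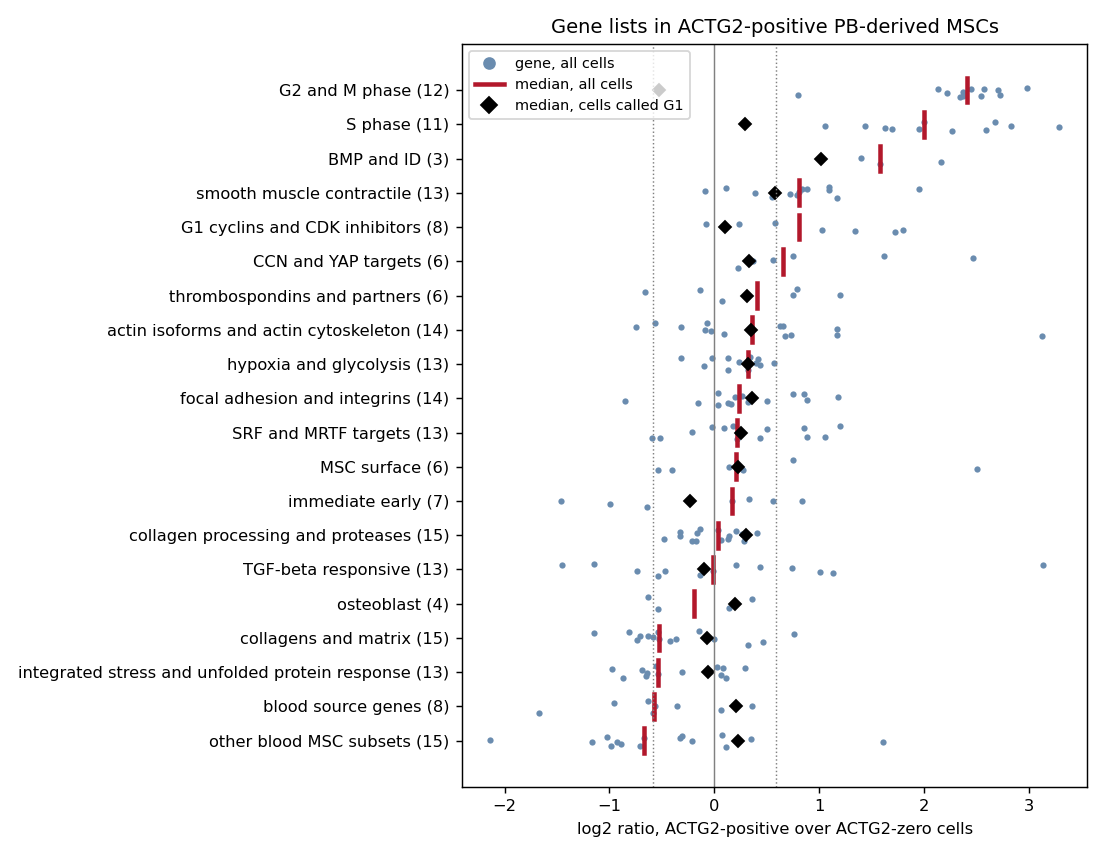
Log2 ratio of ACTG2-positive over ACTG2-zero PB-derived MSCs for the genes of each list with at least 3 measured genes (number in brackets). Dots are genes, red bars are list medians over all cells, black diamonds are medians over cells called G1 and dotted lines mark 1.5-fold. The contractile list was at 0.81 over all cells and 0.58 among cells called G1, and the cycle lists, most of whose genes passed the 25% filter only in ACTG2-positive cells, at 2.41 and 2.00 against -0.53 and 0.29.

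*ACTG2*-positive cells were more often called as cycling. Phases were called per cell from S and G2M genes. Of the 151 cells 44 were called G1 (29.1%, 95% interval 22.0 to 37.1%), 48 S (31.8%, 24.5 to 39.9%) and 59 G2M (39.1%, 31.2 to 47.3%). Among *ACTG2*-zero cells 62.4% were called G1, 22.9% S and 14.8% G2M. The calls depended on depth, since they were the same before and after thinning in 72.2% of *ACTG2*-positive and 66.8% of *ACTG2*-zero cells. At 2500 UMIs in every cell, 20.5% of *ACTG2*-positive cells were called G1 and 48.3% G2M, against 50.2% and 24.3%. With *ACTG2*-zero cells weighted to the depths of the *ACTG2*-positive cells, their G1 share was 62.2%.

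Read in the other direction, 44 of 2951 cells called G1 below the *CCL2* limit (1.49%), 48 of 1140 called S (4.21%) and 59 of 765 called G2M (7.71%) had 3 or more *ACTG2* UMIs. After thinning the phase calls these shares were 1.31%, 3.76% and 5.89%. The order of the phases was thus the same with phase calls from both depths. The *ACTG2* counts were not thinned here, so the threshold still favoured deep cells. Whether the phases differed was not tested, since the cells come from 1 library.

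**Figure D3:**
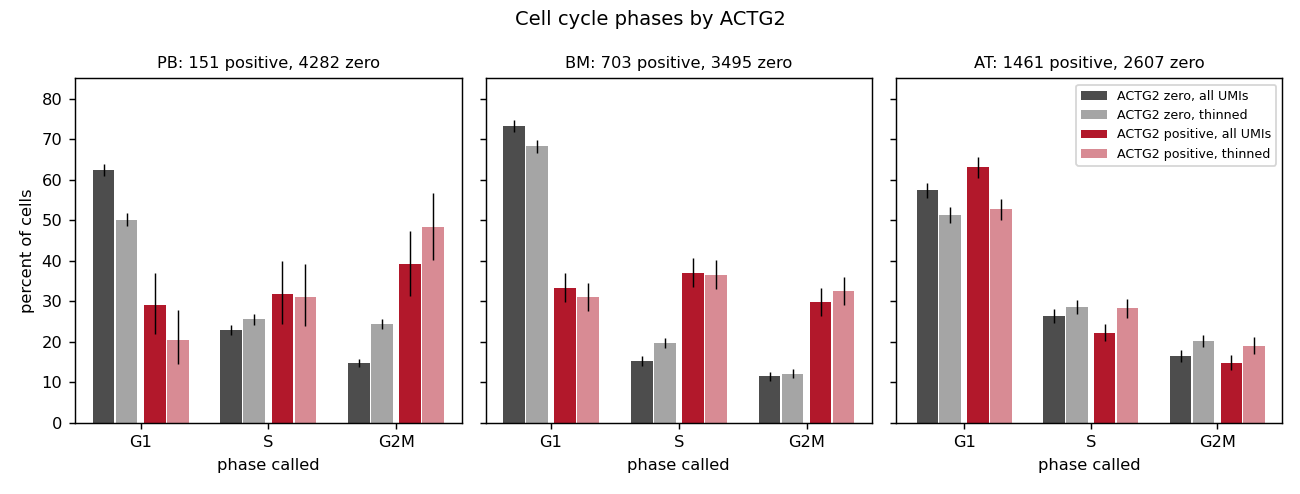
Percent of ACTG2-zero (grey) and ACTG2-positive (red) cells called G1, S or G2M in PB, BM and AT, from all UMIs (dark) and after thinning to 2500 UMIs per cell (light), with exact Clopper-Pearson 95% intervals. In PB and BM the G1 share was lower in ACTG2-positive cells, at 29.1% and 33.3%, whereas in AT it was 63.0% against 57.3%.

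The cycle genes are given as a description, since the phases were called from genes of the same kind. The 11 measured S phase genes had a median log2 ratio of 2.00 and the 12 measured G2 and M phase genes of 2.41. Only 2 and 1 of them passed the 25% filter in *ACTG2*-zero cells, at medians of 1.69 and 0.80. The others passed only in *ACTG2*-positive cells, where they were high. With all genes in 3 cells in place of this filter, the medians were 2.07 for 17 S phase genes and 2.30 for 18 G2 and M phase genes. *UHRF1*, which maintains DNA methylation at replication, had the largest ratio of the named genes that passed the 25% filter, at 38.8 against 3.08 CPM. *MCM5* of the replicative helicase was at 90.2 against 11.8 CPM and *PCNA*, the sliding clamp, at 256 against 65.4 CPM. *CCNA2*, encoding cyclin A, was at 88.3 against 10.3 CPM, *CKS2* at 467 against 70.6 CPM and *BIRC5*, encoding survivin, at 215 against 31.9 CPM. *MCM3* (2.68), *SHCBP1* (2.75) and *MIS18A* (2.62) were also among the 15 largest ratios. Of 8 genes of G1 cyclins and CDK inhibitors 4 were higher, *CDKN2C* (1.80), *CCND1* (1.72), *CDK6* (1.34) and *CCND3* (1.03), of which *CDKN2C* and *CDK6* passed the 25% filter only in *ACTG2*-positive cells, whereas *CDKN1A* (0.23) and *CDKN2A* (0.10) were not.

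Both groups were then restricted to cells called G1. Between 44 *ACTG2*-positive and 2671 *ACTG2*-zero cells, 324 of the 3773 genes were at least 1.5-fold higher (8.59%) and 153 lower (4.06%), with a median of 0.09. The S phase median was 0.29 and the G2 and M phase median -0.53, which the restriction brings about by its own construction. The contractile list had a median of 0.58, with 6 of 13 genes higher and 0 lower. *ACTA2* had a log2 ratio of 1.40 in G1, above its 1.16 over all cells, *TAGLN* 1.05, *CNN1* 1.46, *MYL9* 0.94 and *TPM2* 0.92. *CCL26* fell to a ratio of 1.73, *ALCAM* to 1.70 and *ID1* to 1.16, still past 1.5-fold. *IL11* was at 1.38, but this rests on 10 UMIs in 13.6% of the 44 cells, and its interval from counting error (0.40 to 2.40) reached below 1.5-fold. *CTGF* was at 0.24, *VIM* at -0.08, *DCN* at 0.23 and *COL3A1* at -0.57, so that these no longer passed the fold. *COLEC12* (-2.02) and *MGP* (-1.09) did.

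Levels are also given within each phase called, but cells with the same call were not alike in cycle genes. *BIRC5* was at 139 against 16.4 CPM in *ACTG2*-positive and *ACTG2*-zero cells called S. Among cells called G2M it was at 439 against 184 CPM. *HMGB2* differed less, with log2 ratios of 0.15 in S and 0.26 in G2M. The values below therefore do not compare cells matched for the cell cycle. *CCL26* was at 106 CPM in *ACTG2*-positive cells called G1, 473 in S and 608 in G2M, against 31.3, 53.4 and 82.9 CPM in *ACTG2*-zero cells of the same phases. *VIM* was at 16654, 9411 and 6688 CPM against 17583, 17441 and 16894 CPM. In other words, *ACTG2*-zero cells held nearly the same *VIM* level in every phase called. *ACTG2*-positive cells were slightly lower in G1 (log2 ratio -0.08) and further below in S (-0.89) and G2M (-1.34). These differences between phases were not tested. *ACTA2* ran the other way, at 1427, 1194 and 1069 CPM against 539, 549 and 530.1 CPM, and was thus higher in each phase. *ACTG2*-zero cells were also weighted to the phases and depths of the *ACTG2*-positive cells, a choice made after the phase shares were seen. This gave 453 higher and 113 lower genes. The medians were 0.72 for the contractile, 1.23 for the S phase and 0.54 for the G2 and M phase list. They were -0.37 for the matrix, -0.41 for the stress and -0.42 for the other-subset list.

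Among themselves the 151 cells varied in *VIM*, a pattern noticed after the values were seen. They were divided here at a chosen limit, and whether they form separate groups was not tested. In *ACTG2*-zero cells 5% lay, by construction, below 73.0 *VIM* UMIs per 10,000. Below this limit lay 68 of the 151 *ACTG2*-positive cells (45.0%, 95% interval 36.9 to 53.3%). Of these 68 cells 2 were called G1, 24 S and 42 G2M, whereas of the other 83 cells 42 were called G1, 24 S and 17 G2M. Median depths were 10997 and 9970 UMIs. Cells with more than 10 *ACTG2* UMIs were concentrated on the low side, with 19 of 24.

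The *VIM*-low *ACTG2*-positive cells held most of the *CCL26* difference, at 674 CPM against 189 CPM in the remaining *ACTG2*-positive cells. *F3* was at 185 against 87.9 CPM, *ID1* at 1405 against 605 CPM, *IL11* at 146 against 42.7 CPM and *CCNA2* at 143 against 37.9 CPM. *COL3A1* (640 against 1439 CPM), *DCN* (258 against 1175 CPM), *NUPR1* (66.2 against 322 CPM) and *MGP* (5.30 against 50.1 CPM) were lower in them. The contractile genes were not uniform. *CNN1* was higher in the *VIM*-low cells, at 126 against 73.3 CPM, *MYL9* (583 against 620.4 CPM) and *LMOD1* (75.5 against 78.2 CPM) had overlapping counting intervals, and *TPM2* was lower at 947 against 1269 CPM. *ACTA2* stood at 1029 CPM in *VIM*-low and 1380 CPM in the other *ACTG2*-positive cells and *TAGLN* at 2380 and 2958 CPM, all above the *ACTG2*-zero levels of 540 and 1506 CPM. *ACTG2*-positive cells on both sides of the limit thus had more *ACTA2* and *TAGLN* than *ACTG2*-zero cells. The larger differences in *CCL26*, *ID1*, *COL3A1* and *CCNA2* lay mainly in the *VIM*-low cells.

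*ACTG2*-zero cells with low *VIM* differed from the other *ACTG2*-zero cells in the same direction for *CCL26*, *ID1*, *COL3A1* and *CCNA2*. The 215 *ACTG2*-zero cells below the limit were at 130 CPM of *CCL26*, 374 CPM of *ID1* and 2014 CPM of *COL3A1*, against 39.0, 213 and 2358 CPM in the 4067 above it. This did not hold for every gene. *COL1A1* was at 6775 against 6202 CPM in *ACTG2*-zero cells, but at 3254 against 5249 CPM in *ACTG2*-positive cells. *ACTA2* was at 541 against 540 CPM in *ACTG2*-zero cells. Of these 215 cells 119 were called G1, against 2 of the 68 *VIM*-low *ACTG2*-positive cells, and the part of phase and of *VIM* in the levels was not tested. Across the 151 cells, Spearman's rho of *VIM* with *CCL26* was -0.51, with *COL3A1* 0.59, with *NUPR1* 0.57 and with *ACTA2* 0.16. These points share a library and a total of UMIs per cell, and *VIM* itself had a rho of -0.26 with depth.

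Levels changed in steps with the *ACTG2* count. From cells with 0, 1, 2, 3 to 5, 6 to 10 and over 10 *ACTG2* UMIs, *ID1* went from 221 through 373, 579, 753 and 1312 to 1308 CPM. *CNN1* went from 24.7 through 52.4, 61.0, 79.3 and 97.2 to 159 CPM. *ACTA2* reached 849 CPM at 1 UMI and 982 CPM at 2, and then 1114, 1409 and 1264 CPM, so that most of its difference was already present in cells outside the group.

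The lower genes moved in the opposite direction. *VIM* fell from 17454 CPM at 0 UMIs to 15784 at 2, 11489 at 3 to 5, 11039 at 6 to 10 and 6268 CPM at over 10, and *NUPR1* from 588 to 424, 269, 143 and 57.4 CPM. *MGP* was at 129, 92.5, 45.2, 2.70 and 10.1 CPM in the same classes, where the last 2 rest on 1 and 3 UMIs. *THBS1* had no such order beyond 10 UMIs, with 144 CPM at 3 to 5, 256 at 6 to 10 and 112 CPM at over 10. Depth and phase moved with the classes, from a median of 7548.5 UMIs and 50.2% called G1 after thinning at 0 *ACTG2* UMIs to 12685.5 UMIs and 4.17% (1 of 24 cells) at over 10, and their part in these steps was not tested.

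**Figure D4:**
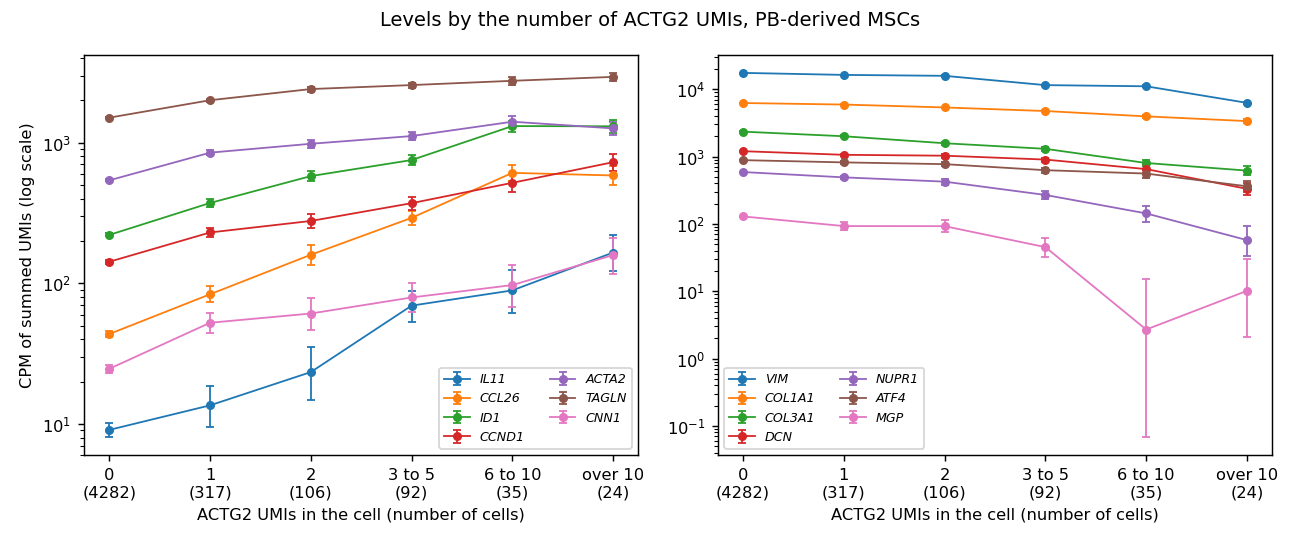
Level of 14 genes in CPM of summed UMIs (log scale) by the number of ACTG2 UMIs in the cell, with the number of cells in brackets and exact 95% Poisson intervals as bars. CNN1 went from 24.7 to 159 CPM and VIM from 17454 to 6268 CPM between cells with 0 and cells with over 10 ACTG2 UMIs.

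The same split was made inside the other libraries, which the rule for PB did not use. *ACTG2* was far more common there, and 3 or more UMIs were found below the *CCL2* limit in 1461 of 5403 kept AT-derived MSCs (27.0%) and 703 of 5580 BM-derived MSCs (12.6%), compared with 2607 and 3495 cells without an *ACTG2* UMI. In AT, 74 of 2934 measured genes were at least 1.5-fold higher (2.52%) and 26 lower (0.886%). In BM, 406 of 3648 were higher (11.1%) and 206 lower (5.65%).

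Several contractile genes were past 1.5-fold in *ACTG2*-positive cells of each source, with larger ratios in AT than in PB for *ACTA2*, *CNN1*, *TAGLN* and *MYL9*. *ACTA2* stood at 1400.1 against 348 CPM in AT (log2 ratio 2.00) and at 1132 against 608 CPM in BM (0.89). *CNN1* was at 221 against 42.9 CPM in AT and 293 against 113 CPM in BM, and *THBS1* at 949 against 271 CPM and 689 against 280.0 CPM. *TAGLN* (1.44), *MYL9* (1.35) and *CALD1* (0.96) passed the fold in AT, whereas in BM they were at 0.19, 0.32 and 0.08. *F3* was higher in AT (1.14) and BM (1.37), with 2.47 in PB.

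Phase shares differed between the groups in BM more than in AT. Of BM-derived *ACTG2*-positive cells 33.3% were called G1 against 73.3% of *ACTG2*-zero cells, and in AT 63.0% against 57.3%, or 52.7% against 51.3% after thinning. *CCNA2* had a log2 ratio of 1.57 in BM and 0.43 in AT, and *MCM5* of 1.46 and 0.39. *VIM* (-0.64) and *NUPR1* (-1.66) were lower in BM as in PB, with -0.24 and -0.15 in AT. Whether the sources differed was not tested, since each had 1 library.

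Of 564 genes higher in PB and measured in both, 255 were higher in BM (45.2%), against 10.1% of all 3392 genes measured in both. They were 74.8% of the 341 genes higher in BM. For AT, 42 of 360 were shared (11.7%), against 2.18% of all 2792 genes measured in both, or 68.9% of the 61 genes higher there. The higher PB genes include those that passed the 25% filter only in *ACTG2*-positive cells, and the overlap without them was not counted. In BM and AT the filter was the same. Cycle genes were not left out of the overlaps. Of the 11 S phase and 12 G2 and M phase genes measured in PB, 11 and 12 were higher in BM, and 0 and 0 in AT. Of the lower genes, 77 of 135 were also lower in BM (57.0% of PB and 41.4% of BM genes) and 9 of 129 in AT (6.98% of PB and 45.0% of AT genes), where 5.48% and 0.716% of all genes measured in both were lower in BM and AT. Of 2745 genes measured in each source, 25 were higher in all 3 and 7 lower. The 25, listed after their values were seen, included *ACTA2*, *CNN1*, *LMOD1*, *TPM2*, *MYH9*, *ACTN1*, *NEXN*, *ITGA5*, *THBS1*, *THBS2*, *F3*, *CGA* and the neurotrophin gene *BDNF*, at log2 ratios of 1.81 in PB, 1.28 in BM and 1.76 in AT. In PB, *CNN1*, *LMOD1*, *NEXN*, *ITGA5*, *F3*, *CGA* and *BDNF* of these passed the 25% filter only in *ACTG2*-positive cells. *S100A1* and *SERPINF1* were among the 7 lower genes.

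**Figure D5:**
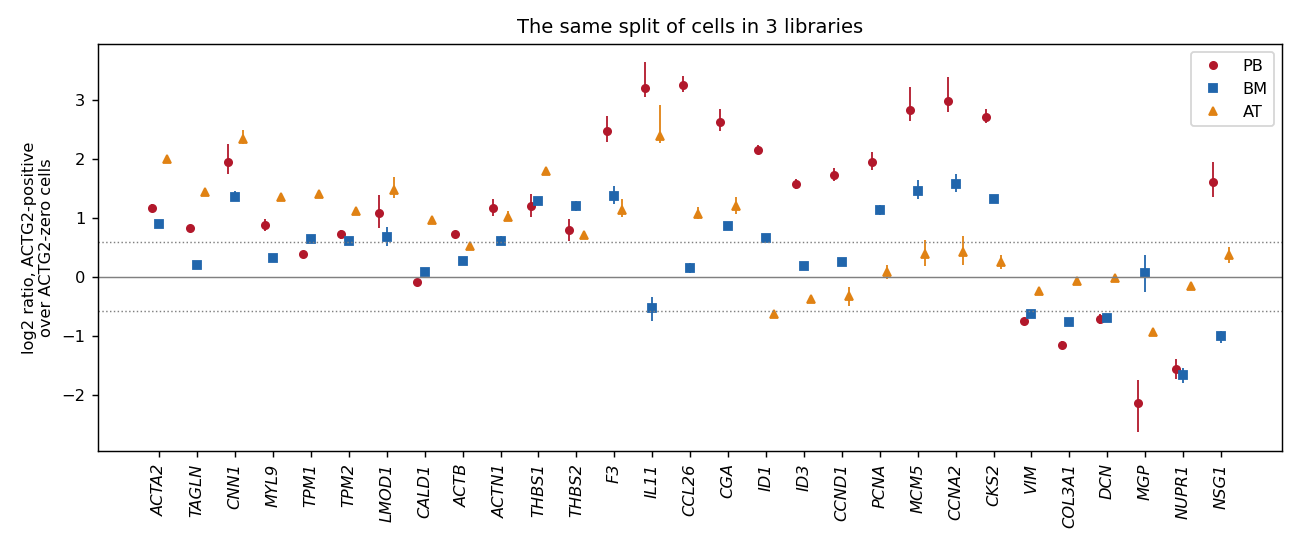
Log2 ratio of ACTG2-positive over ACTG2-zero cells for 29 genes in PB (red), BM (blue) and AT (orange), with 95% intervals from counting error as vertical lines and dotted lines at 1.5-fold. ACTA2, CNN1, THBS1 and F3 were above the line in each source, whereas ID1 was at 2.16 in PB and -0.62 in AT and IL11 at 3.21 in PB and -0.53 in BM.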

How the data were processed

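MSCs of 1 horse were profiled on the 10X Genomics platform with 1 library for each of 3 sources. The authors assigned and mapped reads with Cell Ranger to EquCab3.0 and used ESAT for counting, and the deposited values are whole-number UMI counts without normalization. The authors took out putative multiplets with DoubletDetection for their own analyses, and whether this was done before deposit is not given in the sources used here.

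Kept barcodes had 2500 to 15000 UMIs, of which no more than 3% were mitochondrial. UMIs were summed per group and given in CPM, and a log2 ratio is that of CPM + 1. Genes detected in 25% or more of the cells of a group counted as measured, and a gene was counted as higher or lower past 1.5-fold. No test was made, because each source had 1 library. Phases were called with CellCycleScoring (Seurat 5.3.0 in R 4.3.3). TMM factors came from edgeR 4.0.16, Scrublet scores from Scanpy 1.11.5 and intervals from SciPy 1.17.1. Thinning drew 2500 UMIs per cell without replacement.

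The cells and the 27 gene lists were chosen with earlier results of these data known. Named genes are the 15 largest and 15 smallest log2 ratios, list genes and the markers given with the group, except where stated, and 1 gene of the 15 largest is not reported here. Ribosomal protein genes are given as a group. Doublets were limited by the upper UMI bound, and the 5% with the highest Scrublet scores, 348 cells with ties and 2 of them *ACTG2*-positive, were left out as an alternative. The other alternatives varied the *ACTG2* threshold, the comparison cells, the *CCL2*, mitochondrial and UMI limits, depth, phase, scaling, pseudocount and gene filter. On simulated Poisson counts of 4359 genes at the depths of the PB groups, 100 of 100 genes raised 4-fold and 100 of 100 lowered 4-fold passed 1.5-fold, as did 36 of 4159 unchanged genes. These were group sums of genes at 20 CPM or more, without variation between cells. Changes smaller than 4-fold and the smaller groups of cells called G1 were not simulated.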

Additional observations from a re-analysis of the deposited data

Results flagged for a closer look

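The split by *ACTG2* gave opposite directions in different sources for 3 of the named genes, each past 1.5-fold in both sources with counting intervals that exclude 0. The differences between sources were not tested. *VCAN*, a matrix proteoglycan gene, had a log2 ratio of 0.76 in PB and -0.78 in BM. *ID1* had a ratio of 2.16 in PB, where *ACTG2*-positive cells were at 989 against 221 CPM, and of -0.62 in AT, where they were at 364 against 562 CPM. *NSG1* had a ratio of 1.61 in PB and -1.01 in BM.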

How the results depend on the processing

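With 1, 2 or 5 *ACTG2* UMIs as the threshold, 574, 257 or 72 cells were *ACTG2*-positive, 116, 366 or 994 genes were higher and 7, 75 or 281 lower, and 48.8%, 38.9% or 20.8% of the cells were called G1. At 1 UMI the S phase and G2 and M phase medians were 1.21 and 1.62. At 4 UMIs per 10,000 there were 97 cells. Thinning left 219 higher and 80 lower genes and G1 shares of 20.5% and 50.2%. The medians after thinning were 0.88 for the contractile, 2.07 for the S phase and 2.66 for the G2 and M phase list. Counts of genes in this section are given without the number measured in each setting, which can differ, so they are not shares. Among cells called G1, 347 genes were higher and 90 lower with the gene filter applied to those cells. With the genes measured over all phases, the S phase median was 0.29 and the G2 and M phase and other-subset medians changed sign, to -0.53 and 0.22, as did that of the genes tied to PB as a source, to 0.21. There *UHRF1* (-0.57), *CCNA2* (-0.52), *CCNB1* (-2.08) and *BIRC5* (-0.53) also have values below 0, but these rest on 0 UMIs, or 1 for *BIRC5*, in the 44 *ACTG2*-positive cells, so the pseudocount sets them and no direction is read. Of the other named genes past 1.5-fold over all cells, *CDKN2C* (-0.60), *TYMS* (-0.88), *JUN* (-0.34), *DCN* (0.23), *SERPINF1* (0.22), *LRRC17* (0.40), *ALPL* (0.20), *PPP1R14A* (0.019), *TMEM119* (0.022) and ENSECAG00000008979 (0.058) changed sign. Their counting intervals include 0, except for *DCN* and *LRRC17*. TMM gave 366 higher and 372 lower genes, and a pseudocount of 25 CPM 351 and 94, with S phase and G2 and M phase medians of 1.15 and 1.38 and shares of lower PB genes shared with AT and BM of 2.94% and 47.1%. Depth weighting gave a G2 and M phase median of 1.69. Weighting to phase and depth, chosen after seeing the data, left 113 lower genes, medians of 1.23 and 0.54, and *HMGB2* at -0.27. With genes at 20 CPM 293 were lower. With all genes in 3 cells 2360 were higher and 1518 lower and the BMP and ID median was 0.63. With genes in 25% of *ACTG2*-zero cells, also chosen after seeing the data, 293 were higher and the 1 remaining G2 and M phase gene was at 0.80. Without the mitochondrial or upper UMI limit, 60.4% and 59.1% of *ACTG2*-zero cells were called G1. The contractile list kept a positive median in all of these settings, from 0.52 to 0.88, and 36 of 101 named genes past 1.5-fold stayed past it in the same direction in each of 17 settings. Leaving out barcodes that another matrix also holds was not run, because the AT matrix holds every kept PB barcode. No paired analysis was possible because each source had 1 library. With 151 cells, genes under 1.91 CPM rest on fewer than 3 UMIs.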
